A study of Mus musculus with 8 samples.

Results

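The 10 genes described here encode proteins of the secondary and tertiary granules of neutrophils: Ltf, Camp, Ngp, Lcn2, Mmp8, Mmp9, Chil3, Cd177, Olfm4 and Itgb2l. They were taken by name from a deposited table of read counts for 24421 gene symbols, and all 10 were found in it. The RNA came from mouse bone marrow cells of strain C57BL/6 that carry MLL-AF10, a leukaemia fusion protein. In MATIP cells both copies of the gene for Tip60 are floxed, and Cre-ERT2 is present, a recombinase that 4-hydroxytamoxifen (4-OHT) switches on. Tip60 acetylates histones, and its gene is called Kat5. MAflox cells are MLL-AF10 flox cells, and whether they too carry Cre-ERT2 is not given in the labels. The 4 groups were MATIP cells with 4-OHT, MATIP cells with ethanol (EtOH, the solvent), MAflox cells with 4-OHT and MAflox cells with EtOH, with 2 libraries in each. Cultures of every group were held in methylcellulose medium, to which GM-CSF, SCF and IL-3 were added at 10 nM each, and treatment lasted 4 days with 4-OHT at 100 nM. Nothing in the labels says that the paired libraries come from separate animals or cultures, so p-values measure the spread between these samples only, which may be technical.

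Neutrophils fill their granules in waves as they mature. Primary granules, with myeloperoxidase and serine proteases, are packed in promyelocytes, secondary (specific) granules, with lactoferrin and cathelicidin, in myelocytes, and tertiary granules, rich in gelatinase, still later. Each protein goes into the granule that is being formed when its gene is active, so that transcripts of these genes are used as markers of the stage reached by a maturing granulocyte. C/EBP-epsilon, encoded by Cebpe, is the transcription factor without which mice form no normal secondary granules.

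Library totals ranged between 41101309 and 57312490 counts. Levels are given as CPM, each gene's count relative to the library's total, scaled by TMM factors, library by library with replicate 1 first, and group values as mean ± SD (n = 2). Changes on the log2 scale carry the standard error (SE) of an edgeR fit to all 8 libraries. Genes that rose, fell or differed are those with an adjusted p under 0.05 (quasi-likelihood test, Benjamini-Hochberg, 13722 genes tested). Kat5, the gene floxed in MATIP cells, stood at 8.11 and 8.32 CPM in MATIP cells with 4-OHT against 41.1 and 41.2 CPM with EtOH, and at 57.5 and 62.5 CPM in MAflox cells with 4-OHT against 43.7 and 41.2 CPM with EtOH. In bulk RNA, fewer cells of a type and less RNA per cell cannot be told apart.

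On the mm10 assembly (GENCODE M21) 3 of the genes lie near each other on chromosome 9: Camp at 109847379 to 109849617 (minus strand), Ngp at 110419747 to 110423012 (plus strand) and Ltf at 111019271 to 111042767 (plus strand), with 570129 bases between Camp and Ngp and 596258 between Ngp and Ltf. Mmp8 is on the same chromosome at 7558456 to 7568485 (plus strand). Lcn2 (32384633 to 32388252, minus strand) and Mmp9 (164940780 to 164955850, plus strand) are on chromosome 2, Chil3 on chromosome 3 (106147554 to 106167564, minus strand), Cd177 on chromosome 7 (24743983 to 24760311, minus strand), Olfm4 on chromosome 14 (79984081 to 80023139, plus strand) and Itgb2l on chromosome 16 (96422288 to 96443619, minus strand). All are protein-coding, and the counts cover their exons, 758 bases in Camp and up to 4324 bases in Itgb2l. Only Olfm4 shares exon bases with another annotated gene, 153 bases with the predicted gene Gm6999 on its own strand. Chil3 has a near-identical copy, Chil4, and how reads shared by copies were counted is not given in the sources used here, so the values of Chil3 are uncertain to that extent.

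Promoter sequences (RefSeq, GRCm38.p6, which is the assembly of mm10, 250 bases before to 50 after the annotated start) were found for 9 of the 10 genes. Those of 4 genes are shown, because these stood at the opposite ends of the difference between the lines described below: the responses of Camp and Itgb2l were smaller in MATIP cells by the largest amounts, and those of Mmp8 and Chil3 larger by the largest amounts. Capitals mark every match, on either strand, to the motif TTNNGNAA, a loose form of the sequence bound by C/EBP factors.
Camp (chr9:109849407-109849706, minus strand): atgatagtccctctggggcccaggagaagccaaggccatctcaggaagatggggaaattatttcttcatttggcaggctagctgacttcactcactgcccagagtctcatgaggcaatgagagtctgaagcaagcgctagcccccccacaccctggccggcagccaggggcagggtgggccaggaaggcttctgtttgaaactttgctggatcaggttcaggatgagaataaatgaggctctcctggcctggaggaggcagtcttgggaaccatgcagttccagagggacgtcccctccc
Itgb2l (chr16:96443565-96443864, minus strand): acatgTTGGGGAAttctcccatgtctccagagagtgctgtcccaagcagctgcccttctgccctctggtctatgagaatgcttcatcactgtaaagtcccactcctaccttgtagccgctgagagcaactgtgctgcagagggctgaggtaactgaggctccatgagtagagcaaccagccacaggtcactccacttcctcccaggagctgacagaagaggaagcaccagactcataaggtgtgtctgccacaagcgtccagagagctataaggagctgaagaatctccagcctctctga
Mmp8 (chr9:7558179-7558478, plus strand): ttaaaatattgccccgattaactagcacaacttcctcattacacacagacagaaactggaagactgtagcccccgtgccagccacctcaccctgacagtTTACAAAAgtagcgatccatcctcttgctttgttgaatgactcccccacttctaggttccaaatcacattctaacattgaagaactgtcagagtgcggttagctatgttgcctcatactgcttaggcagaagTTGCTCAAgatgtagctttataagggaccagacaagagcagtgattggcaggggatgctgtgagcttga
Chil3 (chr3:106167515-106167814, minus strand): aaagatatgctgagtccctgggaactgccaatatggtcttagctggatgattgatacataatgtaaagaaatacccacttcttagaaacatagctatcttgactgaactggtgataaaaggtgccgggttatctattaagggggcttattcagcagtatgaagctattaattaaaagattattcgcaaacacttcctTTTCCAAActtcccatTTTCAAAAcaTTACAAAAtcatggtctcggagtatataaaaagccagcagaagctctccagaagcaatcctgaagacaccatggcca
The window of Camp held 0 matches, that of Itgb2l 1, that of Mmp8 2 and that of Chil3 3. These counts did not follow the difference between the lines over the other members. Ngp held as many matches as Chil3, and Ltf as many as Mmp8, though their differences were negative (log2 −3.28 and −3.34). Lcn2, Cd177 and Olfm4 held as many as Itgb2l. This motif was present in 8 of the 9 member promoters and in 40.7% of 27025 promoters of the same length. Of the other motifs searched on both strands, the ETS-type motif GAGGAAG was in 4 of 9 against 13.5% of all promoters, CCAAT in 5 of 9 against 37.9%, and TATAAA in 3 of 9 against 14.2%. A match is a description of the letters and not a bound site, and a window without one says nothing of the factor.

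All 10 genes rose with 4-OHT in both lines. In MATIP cells their log2 changes lay between 3.13 and 7.64 with a median of 5.84, and 37.5% of all genes tested were called higher and 38.6% lower. In MAflox cells they lay between 2.21 and 9.79 with a median of 7.46, and 33.1% of all genes were called higher and 32.1% lower. The median over all genes was 0.00 in MATIP and 0.02 in MAflox cells. For each gene, both 4-OHT libraries lay above both EtOH libraries of the line, which held for 44.2% of all genes in MATIP cells and for 41.4% in MAflox cells. The levels reached in 4-OHT differed between the lines, with some of the genes higher and others lower in MATIP cells, as described below.

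**Figure D1:**
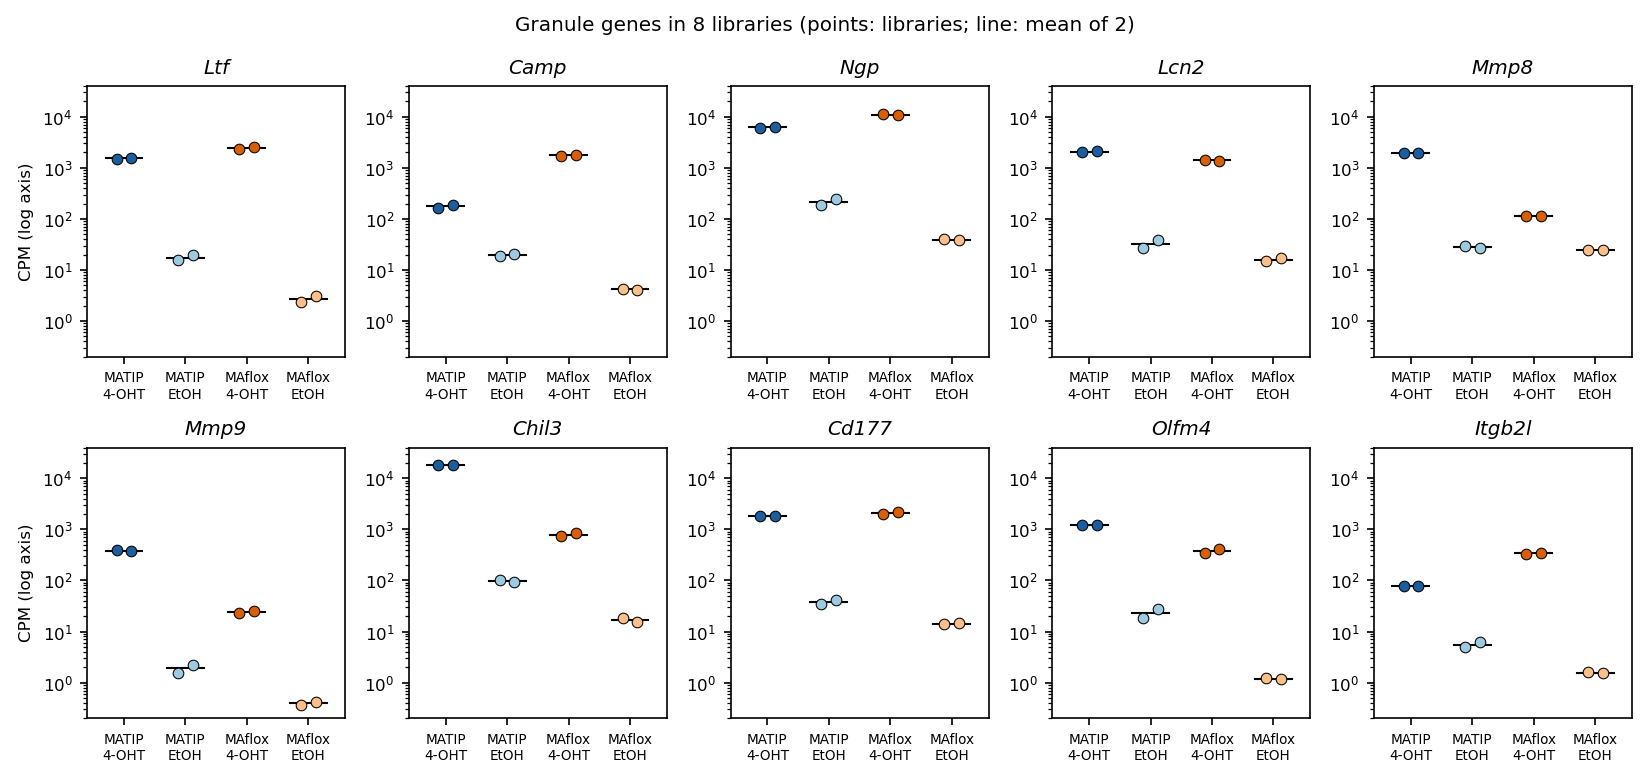
CPM (log axis) of the 10 granule genes in each of the 8 libraries, by group; points are libraries and lines the mean of 2. Every 4-OHT library lies above the EtOH libraries of its line, and the 4-OHT groups of the 2 lines lie closest for Cd177 (1838 and 2077 CPM) and furthest apart for Chil3 (18089 and 784 CPM).

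Among the secondary granule proteins that bind iron or act on microbes, Ltf encodes lactoferrin, which withholds iron from bacteria. It had 1510 and 1576 CPM in MATIP cells with 4-OHT against 15.6 and 19.5 CPM with EtOH, and 2314 and 2580 CPM in MAflox cells with 4-OHT against 2.41 and 3.06 CPM with EtOH. The groups did not overlap, and the log2 changes were 6.45 ± 0.10 in MATIP and 9.79 ± 0.12 in MAflox cells (edgeR adjusted p = 2.21e-20 in MATIP and 2.06e-21 in MAflox cells).

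Camp encodes the cathelicidin precursor, from which a membrane-active antimicrobial peptide is cut. Its levels were 162 and 189 CPM in MATIP cells with 4-OHT against 19.1 and 20.8 CPM with EtOH, and 1719 and 1774 CPM in MAflox cells with 4-OHT against 4.29 and 4.14 CPM with EtOH. The line with the higher level in EtOH thus had the lower level in 4-OHT, with no overlap between any of the 4 groups. Camp rose by 3.13 ± 0.08 on the log2 scale in MATIP cells (8.78-fold) and by 8.70 ± 0.10 in MAflox cells (414-fold), with edgeR adjusted p of 1.26e-17 in MATIP and 8.73e-22 in MAflox cells. Of the 10 genes it had the smallest response in MATIP cells.

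Ngp, neutrophilic granule protein, is a cystatin-related protein of mouse secondary granules. It had 5972 and 6386 CPM in MATIP cells with 4-OHT, where it took 0.585% of all counts, against 184 and 246 CPM with EtOH. In MAflox cells it had 11209 and 10587 CPM with 4-OHT, 1.03% of all counts, against 40.4 and 38.1 CPM with EtOH. Both 4-OHT libraries of MAflox cells lay above those of MATIP cells, and both EtOH libraries of MAflox cells below those of MATIP cells. The log2 changes were 4.84 ± 0.10 in MATIP and 8.12 ± 0.12 in MAflox cells.

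Lcn2, lipocalin 2, binds the siderophores with which bacteria take up iron. Its levels were 2011 and 2134 CPM in MATIP cells with 4-OHT against 27.5 and 38.0 CPM with EtOH, and 1444 and 1390 CPM in MAflox cells with 4-OHT against 14.9 and 17.0 CPM with EtOH. Among the 10 genes it had the most similar responses in the 2 lines, log2 5.98 ± 0.11 in MATIP and 6.47 ± 0.12 in MAflox cells.

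The matrix proteases reached their highest levels in MATIP cells. Mmp8 encodes neutrophil collagenase, a secondary granule enzyme. It had 1933 and 1927 CPM in MATIP cells with 4-OHT against 29.2 and 27.5 CPM with EtOH, and 115 CPM in each of the MAflox libraries with 4-OHT against 25.1 and 24.6 CPM with EtOH. The EtOH libraries of the 2 lines were within a few CPM of each other, whereas MATIP cells with 4-OHT stood far above the other 3 groups. Mmp8 had a log2 change of 6.09 ± 0.07 in MATIP cells (68.2-fold) and of 2.21 ± 0.06 in MAflox cells (4.63-fold), the smallest of the 10 genes there (edgeR adjusted p = 6.18e-22 in MATIP and 1.69e-16 in MAflox cells).

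Mmp9 encodes gelatinase B, the enzyme that gives gelatinase (tertiary) granules their name. It had 387 and 382 CPM in MATIP cells with 4-OHT against 1.54 and 2.24 CPM with EtOH, and 23.3 and 25.3 CPM in MAflox cells with 4-OHT against 0.363 and 0.418 CPM with EtOH. The MAflox EtOH values rest on 16 and 22 counts. Its log2 change was 7.64 ± 0.10 in MATIP cells, the largest of the 10 genes in that line, and 5.94 ± 0.15 in MAflox cells.

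Chil3 encodes Ym1, a chitinase-like lectin made by mouse neutrophils and also by macrophages. It had 17851 and 18328 CPM in MATIP cells with 4-OHT, 1.71% of all counts, against 103 and 93.8 CPM with EtOH. In MAflox cells it had 734 and 834 CPM with 4-OHT against 18.5 and 15.1 CPM with EtOH. The log2 changes were 7.52 ± 0.10 in MATIP (184-fold) and 5.55 ± 0.09 in MAflox cells (46.8-fold; edgeR adjusted p = 2.53e-21 in MATIP and 1.31e-19 in MAflox cells).

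The remaining genes encode glycoproteins of the granule membrane or matrix. Cd177, a surface protein anchored in the membrane by a lipid and stored in secondary granules, had 1827 and 1850 CPM in MATIP cells with 4-OHT against 34.4 and 41.6 CPM with EtOH, and 1971 and 2184 CPM in MAflox cells with 4-OHT against 14.1 and 14.5 CPM with EtOH. Its log2 changes were 5.59 ± 0.09 in MATIP and 7.18 ± 0.09 in MAflox cells. Olfm4, olfactomedin 4, a matrix glycoprotein found in the granules of a subset of neutrophils, had 1195 and 1196 CPM in MATIP cells with 4-OHT against 18.4 and 27.1 CPM with EtOH, and 340 and 403 CPM in MAflox cells with 4-OHT against 1.23 and 1.18 CPM with EtOH. For Olfm4 both levels were higher in MATIP cells while the log2 change was smaller there, 5.70 ± 0.13 against 8.27 ± 0.17 in MAflox cells.

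Itgb2l encodes an integrin-like relative of the beta-2 integrin chain that mouse neutrophils make. Its levels were 78.1 and 79.1 CPM in MATIP cells with 4-OHT against 4.91 and 6.21 CPM with EtOH, and 334 and 343 CPM in MAflox cells with 4-OHT against 1.61 and 1.54 CPM with EtOH. As with Camp, the order of the lines in EtOH was turned round in 4-OHT. The log2 changes were 3.81 ± 0.08 in MATIP and 7.75 ± 0.10 in MAflox cells.

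In the authors' deposited table all 10 genes also have positive log2 fold changes in both lines, 3.17 to 7.61 in MATIP and 2.21 to 9.64 in MAflox cells. The largest distance between the values of the authors' deposited table and those of the present fit is 0.04 in MATIP cells and 0.25, for Mmp9, in MAflox cells.

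The difference of the 2 responses, MATIP minus MAflox, was tested as an interaction in the same fit. It was negative for 7 genes and positive for 3, and all 10 were called, where 33.6% of all genes were called lower and 28.3% higher. Camp had the largest negative difference (log2 −5.56 ± 0.12; edgeR adjusted p = 1.09e-16), followed by Itgb2l (−3.94 ± 0.14), Ltf (−3.34 ± 0.15), Ngp (−3.28 ± 0.13), Olfm4 (−2.57 ± 0.23), Cd177 (−1.59 ± 0.11) and Lcn2 (−0.49 ± 0.14; adjusted p = 0.00479). Larger responses in MATIP cells were seen for Mmp8 (3.88 ± 0.08; adjusted p = 1.09e-16), Chil3 (1.97 ± 0.11) and Mmp9 (1.69 ± 0.31). The call for Lcn2 was lost with DESeq2 (log2 −0.42, adjusted p = 0.134), and without MATIP EtOH replicate 2 its difference was −0.25 (adjusted p = 0.0445).

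**Figure D2:**
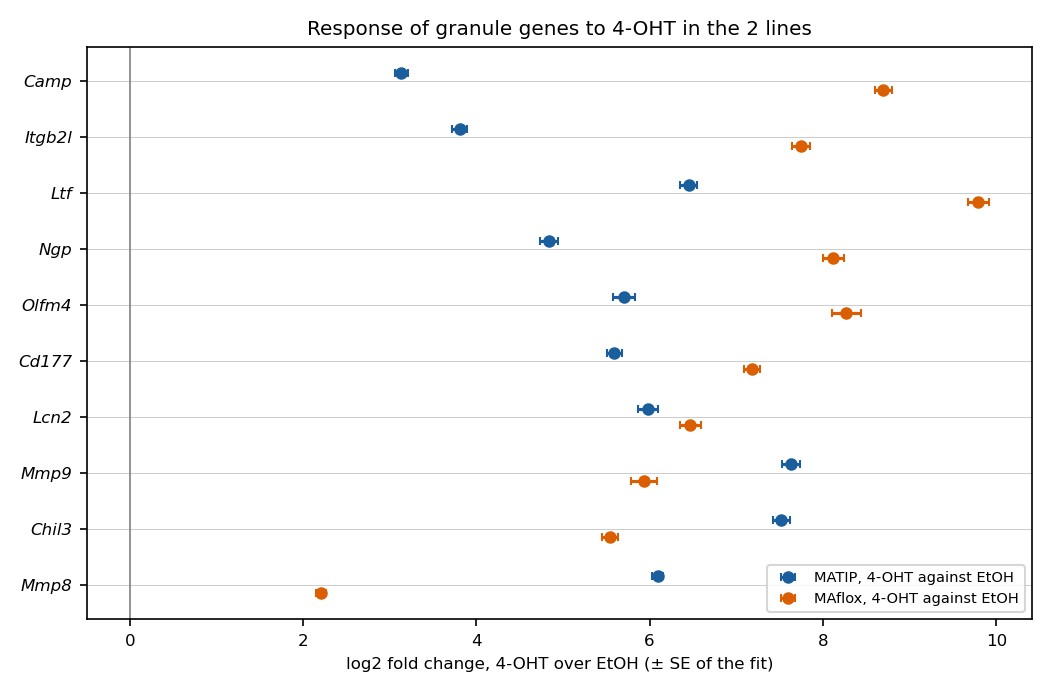
Log2 fold change of each granule gene with 4-OHT over EtOH, in MATIP cells (blue) and MAflox cells (orange), with bars for the SE of the fit to 8 libraries; genes run down the page in order of the difference, MATIP minus MAflox. Camp is at 3.13 in MATIP and 8.70 in MAflox cells at the top, and Mmp8 at 6.09 and 2.21 at the bottom.

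The lines also differed without 4-OHT. In EtOH, all 10 genes were called higher in MATIP than in MAflox cells (median log2 2.27), where 20.3% of all genes were called higher and 11.7% lower. Both MATIP libraries lay above both MAflox libraries for each gene, which held for 35.8% of all genes. Olfm4 differed most (log2 4.25 ± 0.18, 19.1-fold), Ltf, Chil3, Ngp, Mmp9, Camp and Itgb2l by 1.83 to 2.68, and Cd177 and Lcn2 by 1.41 ± 0.08 and 1.04 ± 0.11. For Mmp8 the difference was only 0.19 ± 0.06 (28.3 ± 1.18 CPM in MATIP and 24.9 ± 0.369 CPM in MAflox cells; edgeR adjusted p = 0.0229), and its call was lost when any of 7 of the 8 libraries was left out, all but MATIP EtOH replicate 2 (adjusted p 0.0542 to 0.170). The 2 MATIP EtOH libraries themselves were apart for several genes, with replicate 2 above replicate 1 by 27.1 against 18.4 CPM for Olfm4 and by 246 against 184 CPM for Ngp.

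In 4-OHT, where 38.1% of all genes were called higher and 37.5% lower in MATIP cells, 5 of the granule genes were called higher and 5 lower. Libraries did not overlap for any of the 5 higher genes, as for 44.7% of all genes with MATIP above MAflox, or for any of the 5 lower genes, as for 43.3% with MAflox above MATIP. Higher were Chil3 (log2 4.53 ± 0.08, 23.1-fold), Mmp8 (4.07 ± 0.06, 16.8-fold), Mmp9 (3.98 ± 0.08, 15.8-fold), Olfm4 (1.69 ± 0.10) and Lcn2 (0.55 ± 0.09). Lower were Camp (−3.32 ± 0.07, 9.96-fold), Itgb2l (−2.11 ± 0.07, 4.31-fold), Ngp (−0.82 ± 0.09), Ltf (−0.67 ± 0.08) and Cd177 (−0.18 ± 0.07; edgeR adjusted p = 0.0287). The call for Cd177 was lost with DESeq2 size factors in edgeR (adjusted p = 0.0997), with DESeq2 (0.0754), and without MATIP 4-OHT replicate 1 (0.0990), MATIP 4-OHT replicate 2 (0.0617) or MAflox 4-OHT replicate 2 (0.244).

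**Figure D3:**
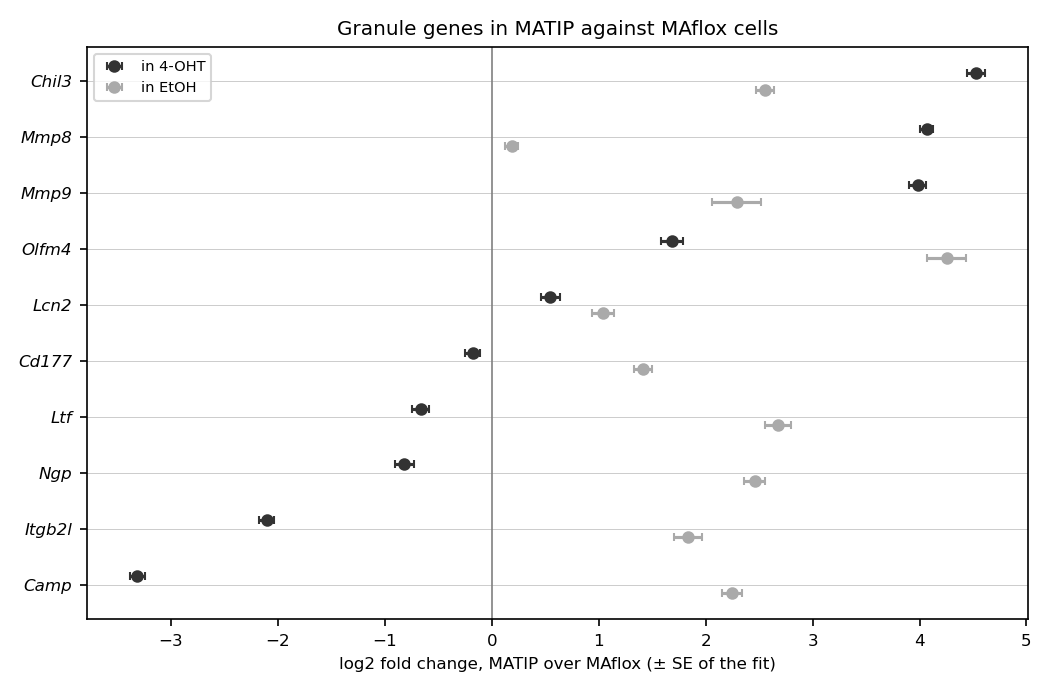
Log2 fold change of each granule gene in MATIP over MAflox cells, in 4-OHT (black) and in EtOH (grey), with bars for the SE of the fit. In EtOH all 10 values are above 0 (0.19 to 4.25), whereas in 4-OHT they run from 4.53 for Chil3 to −3.32 for Camp.

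To set the genes beside each other, CPM was divided by the length of their merged exons in kb. By this level per length, Chil3 led in MATIP cells with 4-OHT (11084 CPM per kb), followed by Ngp (5056), Mmp8 (796), Lcn2 (790.0), Cd177 (647), Ltf (447), Olfm4 (404), Camp (231), Mmp9 (109) and Itgb2l (18.2). The libraries of neighbours in this order did not overlap except those of Mmp8 and Lcn2. In MATIP cells with EtOH the order was Ngp (176 CPM per kb), Chil3 (60.4), Camp (26.3), Cd177 (13.4), Lcn2 (12.5), Mmp8 (11.7), Olfm4 (7.68), Ltf (5.10), Itgb2l (1.29) and Mmp9 (0.535), with overlap between Cd177 and Lcn2 and between Lcn2 and Mmp8.

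In MAflox cells with 4-OHT, Ngp led (8918 CPM per kb), followed by Camp (2304), Cd177 (731), Ltf (709), Lcn2 (540), Chil3 (480), Olfm4 (125), Itgb2l (78.2), Mmp8 (47.5) and Mmp9 (6.87), and only the libraries of Cd177 and Ltf overlapped. In MAflox cells with EtOH, Ngp (32.1 CPM per kb) stood before Chil3 (10.3), Mmp8 (10.3), Lcn2 (6.08), Camp (5.56), Cd177 (5.04), Ltf (0.792), Olfm4 (0.406), Itgb2l (0.364) and Mmp9 (0.110), and the libraries of Chil3 and Mmp8 overlapped.

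As shares of the summed CPM per kb of the 10 genes, Chil3 held 56.6% in MATIP cells with 4-OHT against 19.4% with EtOH, and 3.45% in MAflox cells with 4-OHT against 14.5% with EtOH (means, n = 2). Ngp held 25.8% in MATIP cells with 4-OHT against 55.7% with EtOH, and 64.0% in MAflox cells with 4-OHT against 45.2% with EtOH. Camp held 1.18% in MATIP cells with 4-OHT against 8.39% with EtOH, and 16.5% in MAflox cells with 4-OHT against 7.83% with EtOH. The 10 genes together took 3.15% and 3.20% of all counts in MATIP cells with 4-OHT against 0.0454% and 0.0545% with EtOH, and 1.93% and 1.91% in MAflox cells with 4-OHT against 0.0132% and 0.0128% with EtOH.

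**Figure D4:**
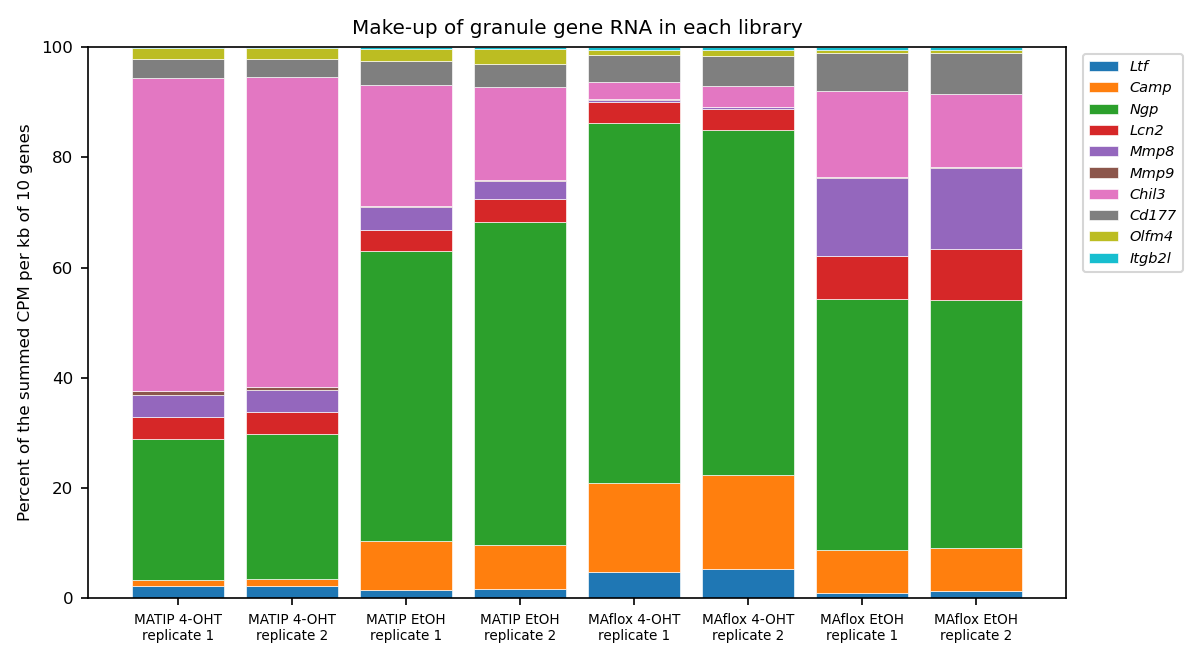
Share of each granule gene in the summed CPM per kb of the 10 genes, in percent, for each of the 8 libraries. Replicates look alike, with Chil3 the widest band in MATIP cells with 4-OHT (mean 56.6%) and Ngp the widest in the other 3 groups (45.2% to 64.0%).

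Other granule genes were followed as a list of 19, mostly further proteins of secondary and tertiary granules and their membranes. Of these, 18 passed the count filter (Ptx3 did not, with 12 counts or fewer in any group). In MATIP cells 17 rose and 0 fell (median log2 4.07), where 37.5% of all genes were called higher. In MAflox cells 18 rose (median log2 3.02), where 33.1% of all genes were called higher. Where the count filter passes a gene through the group where it is high, such counts favour genes that differ. The gene not called in MATIP cells was Vamp2, a vesicle fusion protein (log2 0.17 ± 0.11, adjusted p = 0.186). Those with the smallest p were Fpr2, a formyl peptide receptor (6.30 ± 0.09 in MATIP and 4.82 ± 0.12 in MAflox cells), Plaur, the urokinase receptor (4.39 ± 0.08 in MATIP and 2.46 ± 0.07 in MAflox cells), Pglyrp1, a peptidoglycan-binding protein of secondary granules (2.66 ± 0.08 in MATIP and 3.89 ± 0.08 in MAflox cells), and Cybb, the large subunit of the phagocyte oxidase (5.12 ± 0.11 in MATIP and 5.41 ± 0.11 in MAflox cells). With library totals alone 16 rose in MATIP and 17 in MAflox cells.

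The difference of responses went both ways in that list too, with 7 genes called positive and 6 negative of 18, where 28.3% of all genes were called positive and 33.6% negative. At the negative end stood Fcnb, ficolin B, a lectin of mouse myeloid cells, with 14.7 CPM in MATIP cells with 4-OHT against 5.31 CPM with EtOH, and 185 CPM in MAflox cells with 4-OHT against 1.75 CPM with EtOH (means; difference log2 −5.30 ± 0.25). At the positive end stood Slc11a1, the NRAMP1 metal transporter of tertiary granules (3.13 ± 0.23), and Slpi, a serine protease inhibitor (3.11 ± 0.10). These 3 were named after their values were seen.

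Primary granule genes behaved otherwise, mainly in MATIP cells. Of 8 genes, 2 rose and 6 fell in MATIP cells (median log2 −1.20), where 37.5% of all genes were called higher and 38.6% lower. In MAflox cells 6 rose and 2 fell (median log2 0.46), where 33.1% of all genes were called higher and 32.1% lower. The difference was negative for 7 and positive for 1, as for 33.6% and 28.3% of all genes. With library totals alone 1 rose and 6 fell in MATIP cells. Mpo, myeloperoxidase, fell by 2.27 ± 0.05 on the log2 scale in MATIP cells (1594 and 1688 CPM with 4-OHT against 7866 and 7950 CPM with EtOH) and by 1.44 ± 0.05 in MAflox cells (1702 and 1731 CPM with 4-OHT against 4707 and 4632 CPM with EtOH). Elane, neutrophil elastase, fell by 1.25 ± 0.06 in MATIP cells and rose by 1.20 ± 0.06 in MAflox cells. Ctsg, cathepsin G, fell by 1.58 ± 0.05 in MATIP cells and by 0.17 ± 0.05 in MAflox cells. In MAflox cells only Mpo and Ctsg fell. Prtn3, Ms4a3 and Prss57 rose there by 0.53 ± 0.06, 0.36 ± 0.06 and 1.20 ± 0.07, and fell in MATIP cells. Ctsc and Srgn rose in both lines.

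Regulators of granule genes were a list of 14 transcription factors and receptors, of which 13 were tested. In MATIP cells 7 rose and 4 fell, where 37.5% of all genes were called higher and 38.6% lower. In MAflox cells 9 rose and 3 fell, where 33.1% of all genes were called higher and 32.1% lower. With library totals alone these were 5 and 4 in MATIP and 8 and 4 in MAflox cells, and with DESeq2 size factors 8 and 4 in MATIP cells. Cebpe had 53.7 and 58.9 CPM in MATIP cells with 4-OHT against 48.7 and 56.5 CPM with EtOH, and 404 and 436 CPM in MAflox cells with 4-OHT against 60.05 and 65.1 CPM with EtOH. Its MATIP groups overlapped, with a log2 change of 0.10 ± 0.08 (edgeR adjusted p = 0.254) that was 0.17 with DESeq2 size factors (adjusted p = 0.0457) and −0.04 with library totals alone (adjusted p = 0.646). In MAflox cells Cebpe rose by 2.74 ± 0.08, and the difference of the responses was −2.65 ± 0.11 (edgeR adjusted p = 2.33e-13). Csf3r, the receptor for the granulocyte growth factor G-CSF, rose by 2.12 ± 0.07 in MATIP and by 1.93 ± 0.08 in MAflox cells, with a difference of 0.18 ± 0.11 (adjusted p = 0.145). Rara, the retinoic acid receptor alpha, rose by 2.35 ± 0.09 in MATIP and by 0.43 ± 0.09 in MAflox cells.

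**Figure D5:**
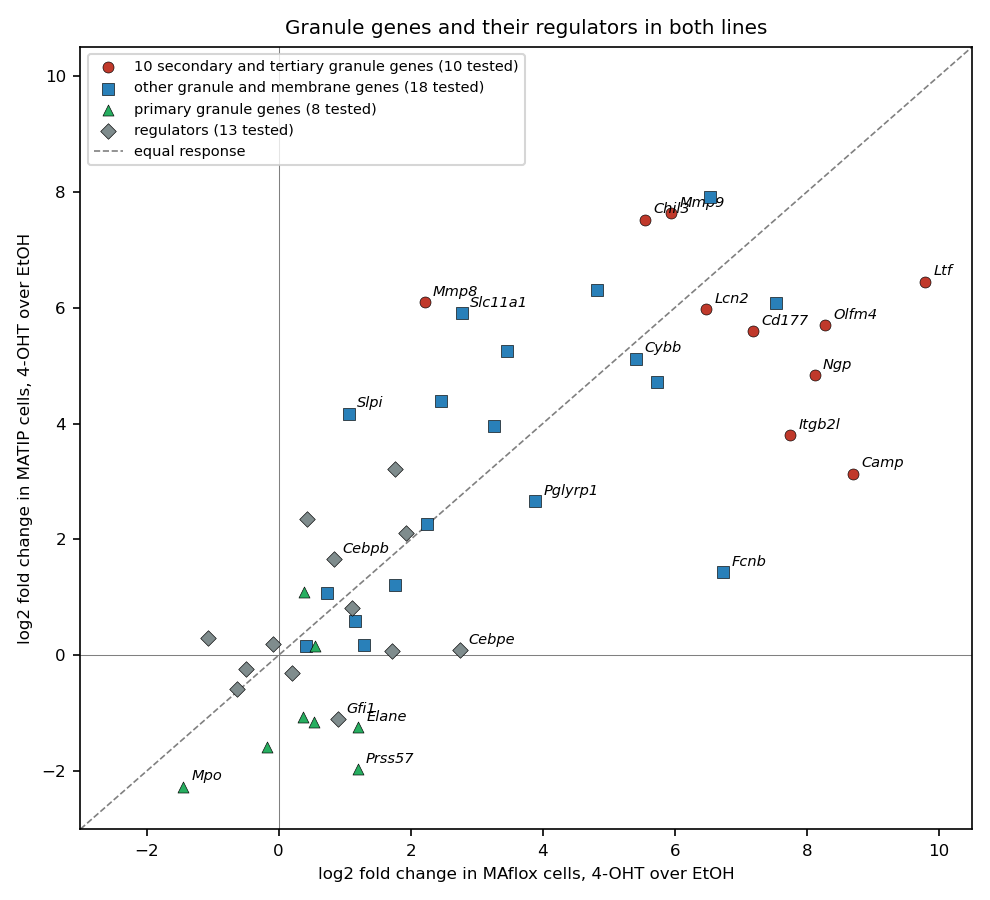
Log2 fold change with 4-OHT over EtOH in MATIP cells (vertical axis) against that in MAflox cells (horizontal axis) for tested genes of 4 lists, with a dashed line at equal responses. The 10 granule genes (red) lie on both sides of the line, from Camp (3.13 in MATIP, 8.70 in MAflox) to Mmp8 (6.09 and 2.21), and Cebpe lies at 0.10 in MATIP and 2.74 in MAflox cells.

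Markers of late neutrophils and of other cells moved with 4-OHT as well. Over all genes tested, 37.5% were called higher and 38.6% lower in MATIP cells, and 33.1% higher and 32.1% lower in MAflox cells. Late neutrophil genes rose in 10 of 11 tested in MATIP cells and in 10 of 11 in MAflox cells, where 1 fell. With library totals alone 10 rose and 1 fell in MATIP cells. They included S100a8, a calprotectin subunit (log2 5.22 ± 0.08 in MATIP and 7.75 ± 0.09 in MAflox cells), Stfa2l1 (7.43 ± 0.09 in MATIP and 8.59 ± 0.10 in MAflox cells) and Ifitm6 (6.42 ± 0.09 in MATIP and 8.90 ± 0.11 in MAflox cells). The summed level of the 11 late neutrophil genes in the table was 23585 to 26597 CPM in MATIP cells with 4-OHT against 784 to 842 CPM with EtOH, and 33829 to 37638 CPM in MAflox cells with 4-OHT against 545 to 552 CPM with EtOH.

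Monocyte and macrophage genes (14, of which 11 tested) rose in 10 in MATIP cells, where 37.5% of all genes were called higher. In MAflox cells 7 rose and 1 fell (2 with library totals alone), where 33.1% of all genes were called higher and 32.1% lower. The difference was positive for 10, as for 28.3% of all genes. The summed level of the 14 genes was 14798 to 15195 CPM in MATIP cells with 4-OHT against 293 to 323 CPM with EtOH. In MAflox cells it was 997 to 1102 CPM with 4-OHT against 274 to 303 CPM with EtOH. Spp1, osteopontin, rose by 6.42 ± 0.09 on the log2 scale in MATIP and by 3.64 ± 0.08 in MAflox cells, and Gpnmb, a membrane glycoprotein of macrophages, by 6.63 ± 0.12 in MATIP and 3.77 ± 0.11 in MAflox cells. The complement genes C1qa, C1qb and C1qc had at most 28 counts in any group, and C1qa had 0 in all 8 libraries. The summed level was highest in MATIP cells with 4-OHT, the group where Chil3, Mmp8, Mmp9, Olfm4 and Lcn2 were highest too. Most of that sum came from Spp1 (mean 8296 CPM) and Gpnmb (mean 5064 CPM). Not every gene of the list was highest there. Ccr2, a monocyte chemokine receptor, averaged 126.6 CPM in MATIP cells with 4-OHT and 141.1 CPM in MAflox cells with EtOH. Cx3cr1, another, averaged 1.55 CPM in MATIP cells with 4-OHT and 2.22 CPM in MAflox cells with EtOH. The part of these genes in the result was not tested.

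Eosinophil markers summed to 35.4 to 37.9 CPM in MATIP cells with 4-OHT against 4.13 to 4.19 CPM with EtOH, and to 52.3 to 79.2 CPM in MAflox cells with 4-OHT against 7.74 to 8.93 CPM with EtOH; 5 of 7 tested rose in MATIP and 6 of 7 in MAflox cells, among them Ear2 (log2 6.55 ± 0.27 in MATIP and 4.70 ± 0.33 in MAflox cells) and Siglecf (0.65 ± 0.17 in MATIP and 2.86 ± 0.17 in MAflox cells). Ear1 rose by 7.95 ± 0.38 in MATIP cells and had 139 counts in MAflox cells with 4-OHT against 0 with EtOH. The eosinophil granule genes Prg2 and Epx had only 2 and 4 counts in MATIP cells with 4-OHT (adjusted p = 0.685 for Prg2 and 0.107 for Epx), and averaged 32.1 CPM (Prg2) and 11.2 CPM (Epx) in MAflox cells with 4-OHT. The sum in MATIP cells with 4-OHT was thus made up mostly of the Ear genes and Siglecf, and that in MAflox cells with 4-OHT mostly of Prg2, Siglecf and Epx. Mast cell and basophil markers summed to at most 4.95 CPM in MATIP cells with 4-OHT and 9.70 CPM with EtOH, and 39.9 CPM in MAflox cells with 4-OHT and 41.8 CPM with EtOH, with 1 of 5 tested rising and 2 falling in MATIP cells and 4 rising and 1 falling in MAflox cells, where library totals alone left 2 rising. Mcpt8, a basophil protease, changed by −1.13 ± 0.15 in MATIP and 0.29 ± 0.11 in MAflox cells, Ms4a2, a chain of the IgE receptor, by −2.24 ± 0.25 in MATIP and 0.50 ± 0.21 in MAflox cells, and Gata2, a transcription factor, by 0.34 ± 0.26 (adjusted p = 0.238) in MATIP and −1.44 ± 0.18 in MAflox cells. Prss34, a basophil and mast cell protease, had 0 counts in MATIP cells and rose by 2.87 ± 0.72 in MAflox cells. Of the lymphoid and erythroid markers, Cd3e, Hba-a1 and Hbb-bs had 0 counts in all 8 libraries; of 3 tested, 1 rose and 2 fell in MATIP cells and 1 rose in MAflox cells, with Nkg7, a granule protein of cytotoxic cells, at −1.74 ± 0.09 in MATIP and 1.04 ± 0.07 in MAflox cells, and Klf1, an erythroid transcription factor, at −2.04 ± 0.52 in MATIP and 0.58 ± 0.47 (adjusted p = 0.283) in MAflox cells. Progenitor genes fell in 5 of 8 in MATIP cells, where 1 rose, and in 6 of 8 in MAflox cells, with Myb at −2.24 ± 0.05 in MATIP and −0.64 ± 0.05 in MAflox cells and Hoxa9 at −1.37 ± 0.06 in MATIP and −1.14 ± 0.06 in MAflox cells. With library totals alone 7 progenitor genes fell in MAflox cells. Cd34 changed by −1.83 ± 0.12 in MATIP and −2.30 ± 0.09 in MAflox cells, and Meis1 by −0.63 ± 0.07 in MATIP and −2.24 ± 0.08 in MAflox cells. The progenitor gene that rose in MATIP cells was Kit (0.80 ± 0.06), which was not called in MAflox cells (−0.11 ± 0.06, edgeR adjusted p = 0.134). Sox4 was not called in MATIP cells (−0.04 ± 0.09, edgeR adjusted p = 0.707) and fell by 2.06 ± 0.10 in MAflox cells. Gata1 was called in neither line. For comparison with the list counts given here, 37.5% of all genes were called higher and 38.6% lower in MATIP cells. In MAflox cells 33.1% were called higher and 32.1% lower. The part of the cell types named above in the granule gene results was not tested.

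The 10 genes did not share a single profile. With log2 CPM centred over the 8 libraries, Lcn2 lay closest to their mean profile (Euclidean distance 1.09) and Mmp8 furthest from it (4.89). Neighbours were Lcn2 with Cd177 (0.874), Chil3 with Mmp9 (0.943) and Camp with Itgb2l (1.33), whereas the nearest gene to Mmp8, Chil3, was 4.15 away. Of genes in none of the lists, those most like the mean profile were Slfn1 (1.09), Car4 (1.09), the chemokine gene Cxcl2 (1.41), Serpinb2 (1.59) and the chemokine gene Ccl6 (1.65). Slfn1 had 99.0 and 101 CPM in MATIP cells with 4-OHT against 1.09 and 1.02 CPM with EtOH, and 57.4 and 58.1 CPM in MAflox cells with 4-OHT against 0.227 and 0.304 CPM with EtOH.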

How the data were processed

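RNA sequencing of 8 libraries was analysed. The tools named in the submitters' processing notes are, per the labels, featureCounts 1.6.4, HISAT2 2.1.0, Trimmomatic 0.38.0 and DESeq2, with build mm10. Not given in the sources used here are strandedness, annotation and the handling of multiply mapped reads. The deposited table holds raw read counts per gene symbol. The authors' other deposited table lists log2 fold changes and adjusted p-values for each line.

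Genes passing filterByExpr (minimum count 10, minimum total 15) numbered 13722. They were scaled by TMM and tested in edgeR 4.0.16 (R 4.3.3) by quasi-likelihood with 1 coefficient per group over all 8 libraries (4 residual and 14.3 prior degrees of freedom), after a check on simulated data. In the simulated data far fewer genes changed than were called here, and only in MATIP cells with 4-OHT. The check therefore does not cover scaling or calls where most genes change. The SE is the log2 change over the square root of F. No replicate pair was alike within counting error (chi-square per degree of freedom 7.17 to 13.3). DESeq2 1.42.0 and other scalings, filters and sample sets were tried as alternatives. Exon lengths come from GENCODE M21.

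The 10 genes, the 11 other lists and the alternatives were chosen with earlier results of these data known. Named were the 10 genes, the 2 called members with the smallest p per other list and line, and the 5 unlisted genes most like the mean profile. Further genes of the lists, such as Fcnb, Kit and Prtn3, were named after their values were seen. Ly6g was not matched. Some genes of these lists are not reported here.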

Additional observations from a re-analysis of the deposited data

Results flagged for a closer look

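The responses of the 10 granule genes to 4-OHT were called different between the 2 lines by the interaction term of the edgeR fit (adjusted p under 0.05 over all genes, as for 33.6% of genes in the negative and 28.3% in the positive direction). The log2 difference, MATIP minus MAflox, was −5.56 for Camp, −3.94 for Itgb2l, −3.34 for Ltf, −3.28 for Ngp, −2.57 for Olfm4, −1.59 for Cd177 and −0.49 for Lcn2. It was 3.88 for Mmp8, 1.97 for Chil3 and 1.69 for Mmp9. For Lcn2 the call was lost with DESeq2 (−0.42, adjusted p = 0.134). No direction turned when any 1 library was left out, and the size of the Lcn2 difference depended on which MATIP EtOH library was kept (−0.71 without replicate 1 and −0.25 without replicate 2). A difference of responses also rests on the levels in EtOH, where all 10 genes were called higher in MATIP cells. In 4-OHT, 5 genes were called higher in MATIP cells, Olfm4 and Lcn2 among them, and 5 lower. The calls for Mmp8 in EtOH and Cd177 in 4-OHT did not hold under every alternative.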

How the results depend on the processing

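Each member was recomputed under the alternative scalings, no count filter, a prior count of 2, a replicate block, the compared groups alone, DESeq2 and without each library in turn. Of 50 results (10 genes in 5 comparisons) 47 kept their direction and call under every alternative run, 0 reversed, and 16 of 740 values lost the call, all for Mmp8 in EtOH, Cd177 in 4-OHT and the Lcn2 difference. Outside the libraries named in the report, the Mmp8 call was lost with library totals alone (adjusted p = 0.0626), without a count filter (0.0612) and with the compared groups alone (0.156). Leaving out 1 library left 10 members called in each treatment comparison. Under library totals alone the median of all genes moved by −0.16 in MAflox and by −0.13 in MATIP cells, and 38.8% of called genes were higher in MAflox cells, in place of 50.8%. The number of genes called moved by less than 1.5 times under every alternative. The labels do not say what replicate numbers stand for, and deviations of same-numbered libraries did not correlate (−0.0391 in MATIP and −0.00230 in MAflox cells); with a replicate block 4946 genes were called higher and 5206 lower in MATIP cells, 4349 and 4292 in MAflox cells, and no member lost its call. Depth limited Mmp9 most, with 38 counts over the MAflox EtOH libraries.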

Other observations

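Relatives of the granule genes and inhibitors of matrix proteases formed a further list of 10, of which 10 rose in MATIP and 9 in MAflox cells. Of all genes, 37.5% were called higher in MATIP and 33.1% in MAflox cells. Here too the count filter favours genes that differ, as with Chit1, which had 88 counts in MATIP cells with 4-OHT and 0 with EtOH. Chil1, a chitinase-like relative of Chil3, had 107 and 112 CPM in MATIP cells with 4-OHT against 0.979 and 0.720 CPM with EtOH, and 137 and 140 CPM in MAflox cells with 4-OHT against 0.409 and 0.304 CPM with EtOH. Its 4-OHT levels in the 2 lines lay far closer than those of Chil3. Mmp12, macrophage elastase, rose by 5.75 ± 0.08 on the log2 scale in MATIP and by 4.21 ± 0.09 in MAflox cells. Ceacam10, an adhesion molecule relative, had 22.7 ± 4.46 CPM in MATIP cells with 4-OHT and 166 ± 4.87 CPM in MAflox cells with 4-OHT, with a difference of responses of −4.97 ± 0.34.

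Genes of iron handling, the context of Ltf and Lcn2, rose in 5 of 6 tested in MATIP cells, where 1 fell, and in 5 of 6 in MAflox cells, where library totals alone left 4. Of all genes, 37.5% were called higher and 38.6% lower in MATIP cells, and 33.1% higher in MAflox cells. The ferritin chains rose more in MATIP cells: Fth1 had 15828 and 16917 CPM in MATIP cells with 4-OHT against 825 and 750.5 CPM with EtOH, and 2707 and 2425 CPM in MAflox cells with 4-OHT against 852 and 834 CPM with EtOH (difference of responses 2.77 ± 0.09; edgeR adjusted p = 2.92e-14). Ftl1 had a difference of 2.04 ± 0.08. Slc40a1, the iron exporter ferroportin, went the other way, with log2 changes of 2.87 ± 0.07 in MATIP and 4.55 ± 0.08 in MAflox cells and a difference of −1.68 ± 0.11.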
